A study of Mus musculus with 2 samples.

Results

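The 10 genes described here belong to the TGF-beta pathway and were followed in chromatin accessibility data from mouse fetal liver blood progenitors with and without BRD9. They were the receptor genes Tgfbr1, Tgfbr2 and Tgfbr3, the SMAD genes Smad2, Smad3, Smad4, Smad6 and Smad7, and the corepressor genes Ski and Skil. Peaks of the control and knockout lists were merged wherever they shared at least 1 bp. Merged regions that overlapped one of the 10 genes, or lay within 50 kb of its RefSeq span on mm10, were taken, which gave 72 of 29076 regions, with 59 control and 55 knockout peaks. The region closest to that limit on the inside lay 49.5 kb from Tgfbr1 (14 control and 15 knockout reads), and the closest on the outside lay 50.3 kb from Smad4 (20 and 21 reads). No region belonged to more than 1 of the genes.

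ATAC-seq, which uses a transposase to cut and tag open DNA, was done on 2 libraries of E14.5 fetal liver cells. Both were made from 150000 cells of C57BL/6 background that were CD45.2(+), sorted as lacking lineage markers and carrying c-Kit, a gate for blood stem and progenitor cells. The control library (replicate 1) had the genotype Brd9fl/fl and the knockout library (replicate 2) Vav1-iCre Brd9fl/fl, so the floxed Brd9 alleles were common to both and the Cre was not. BRD9 is a bromodomain protein found in the non-canonical BAF complex, which remodels chromatin, and the Vav1 regulatory DNA directs the Cre to blood cells. The labels do not give how many embryos were pooled. With 1 library per genotype no test between genotypes was possible, and each difference below is one between these 2 libraries. A site open in fewer cells and a site less open in each cell cannot be told apart in such bulk data.

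The control list held 25330 peaks and the knockout list 22348. The values below are summit reads, the number of extended reads over a peak's highest point, recovered from the deposited fold and p-value of each peak. Relative to the control library the knockout library had a background depth of 0.640, and a scaled ratio is knockout over control summit reads divided by that depth. Intervals are 95% intervals that cover counting error only. The Brd9 gene end had 217 control and 151 knockout reads (scaled ratio 1.09, interval 0.877 to 1.34), and it checks neither label, since the labels do not place the floxed part. The libraries differed at sex-linked genes. The Y-linked Ddx3y and Uty had peaks of 33 and 18 reads in the knockout library and none in the control, and an Xist region had 86 control and 33 knockout reads. All 10 TGF-beta pathway genes are autosomal. Of 11 stem and progenitor marker genes, 7 had a gene-end region in both lists, with 902 control and 531 knockout reads summed over the list, while Cd34, Gata2, Fli1 and Erg had none within 1 kb of either end of the gene. In that list Tal1 (214 and 61 reads; scaled ratio 0.445) and Lmo2 (62 and 20; 0.504) had intervals below 1, Lyl1 (336 and 283; 1.32) had one above 1, and those of Kit (109 and 65), Runx1, Myb and Meis1 included 1. Of 4 erythroid markers 3 had one, with 954 and 613 reads summed, and Gata1 had none. Epor (369 and 197 reads; 0.834, 0.698 to 0.994) had an interval below 1 and Nfe2 (402 and 306; 1.19, 1.02 to 1.38) one above 1. Of 9 markers of the lineages removed by the gate, 7 had none in either list and Cd4 had a control-only one of 9 reads. Only Apoa1 of 5 hepatocyte markers had one, with 26 and 19 reads. No endothelial marker of 5 had one in both lists, and of 5 stromal markers Col1a1 did (29 and 19 reads). Of 5 macrophage markers, Axl (486 and 332 reads) and Mertk (12 and 21 reads; scaled ratio 2.73, 1.28 to 6.09) had one, and Adgre1, Cd68 and Csf1r had none. Whether a marker's gene-end region also lies at an end of another gene was not checked, so its reads cannot be given to the marker alone. The part of these cell types in the results below was not tested.

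TGF-beta binds the type II receptor, which then activates the type I receptor kinase. That kinase phosphorylates SMAD2 and SMAD3, which enter the nucleus with SMAD4 and act on target genes. SMAD6 and SMAD7 block the pathway, and SKI and SKIL (also called SnoN) hold SMAD target genes in check by bringing in corepressors. In blood, TGF-beta is known as a brake on the cycling of stem and progenitor cells.

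Start-site sequence could be set beside the peaks for Tgfbr1, Tgfbr2, Smad3 and Smad6, whose gene-end regions cover the DNA just upstream of a start in a RefSeq promoter table (build GRCm38.p6, the coordinates of mm10). They are shown because their scaled ratios, given below, include both directions. Each runs 5′ to 3′ towards the start site and stops at the outer end of the gene. Capitals mark CCAAT, the NF-Y letters, GGGCGG, the Sp factor letters, and CAGAC, the SMAD box letters, on either strand.
Tgfbr1, chr4:47352972-47353221, plus strand: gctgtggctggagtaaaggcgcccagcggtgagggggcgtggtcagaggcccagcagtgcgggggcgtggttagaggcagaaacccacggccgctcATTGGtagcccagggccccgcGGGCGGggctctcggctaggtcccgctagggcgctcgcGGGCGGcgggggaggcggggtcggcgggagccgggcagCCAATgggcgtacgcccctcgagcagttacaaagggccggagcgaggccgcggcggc
Tgfbr2, chr9:116175364-116175613, minus strand: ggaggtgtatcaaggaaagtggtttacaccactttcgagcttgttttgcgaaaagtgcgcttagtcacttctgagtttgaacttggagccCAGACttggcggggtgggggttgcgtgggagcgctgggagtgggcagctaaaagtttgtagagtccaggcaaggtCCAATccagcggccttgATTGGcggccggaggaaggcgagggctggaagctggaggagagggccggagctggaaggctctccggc
Smad3, chr9:63757995-63758244, minus strand: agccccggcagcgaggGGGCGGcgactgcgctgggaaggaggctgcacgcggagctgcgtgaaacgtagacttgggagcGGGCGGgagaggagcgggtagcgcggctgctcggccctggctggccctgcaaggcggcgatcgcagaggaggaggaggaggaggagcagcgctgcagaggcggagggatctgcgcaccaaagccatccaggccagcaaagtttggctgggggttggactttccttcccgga
Smad6, chr9:64022086-64022309, minus strand: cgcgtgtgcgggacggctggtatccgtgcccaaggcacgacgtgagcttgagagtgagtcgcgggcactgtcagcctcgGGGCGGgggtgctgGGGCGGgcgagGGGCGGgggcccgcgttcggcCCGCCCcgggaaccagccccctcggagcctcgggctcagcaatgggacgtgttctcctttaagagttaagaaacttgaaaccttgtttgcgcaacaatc

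The stretch of Tgfbr1 held 2 GGGCGG and 2 CCAAT, that of Tgfbr2 held 2 CCAAT and 1 CAGAC, and those of Smad3 and Smad6 held 2 and 4 GGGCGG. No marked match overlapped another kind. Over all 32851 upstream windows of 250 bases in the table, 32.7% held GGGCGG, 33.9% CCAAT and 42.2% CAGAC, so these letters are common. None of the 4 genes had AGATAA, the GATA letters (in 9.99% of all windows), CGGAAG, the ETS letters (13.6%), or TGACTCA, the AP-1 letters (4.46%). The windows were rich in CpG, with 29 CpG in Tgfbr1, 27 in Smad6, 22 in Smad3 and 12 in Tgfbr2, against a median of 6 over all windows. Ski had 53 CpG and 87.6% GC in its window, but its gene-end region began 535 bp upstream of the start and did not cover it. Tgfbr1 has another start in the table, 13887 bp from the nearest listed region. No start of Tgfbr3, Smad2, Smad4, Smad7 or Skil was matched in the table.

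All 10 genes had a region in both lists within 1 kb of an end of the gene (a gene-end region), and at 9 of the 10 the scaled ratio was above 1. Smad3 was the exception. The median log2 scaled ratio of the 10 was 0.40, against 0.01 over the 10376 coding genes with a shared gene-end region, of which 51.5% were above 1. A counting interval wholly above 1 was found at 4 genes (9.32% of all coding genes) and wholly below 1 at 1 gene (7.59%). Only Tgfbr2 passed a ratio of 1.5 (4.94% of coding genes), and none lay at or below 0.667 (4.59%). The result rests on read heights: the ratio of the deposited folds, which divide each summit by its own local background, had a median log2 of 0.072 over the same genes, with Smad3 turned to 0.063 and Ski to −0.012. At Tgfbr1, for example, the local background was 18.3 control and 16.7 knockout reads, which is also higher in the knockout at equal depth. The 2 samples include no input library, and this background was high where the summit was high. At the other control regions of the Tgfbr1 locus it was 1.52 to 1.99 reads. Dividing by it may remove part of a difference in height, so the fold is no independent check, and this was not tested.

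**Figure D1:**
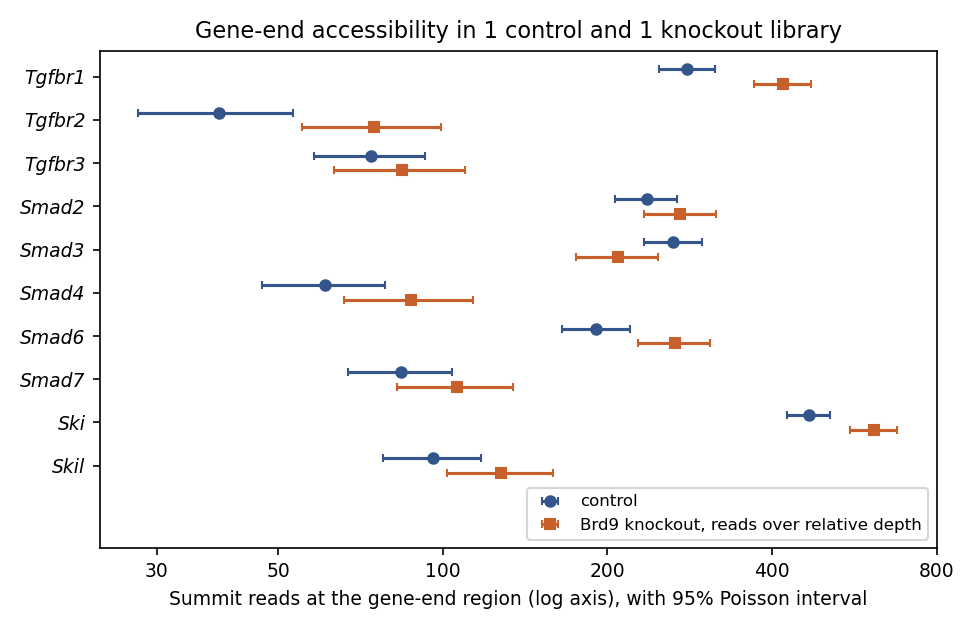
Summit reads at the gene-end region of each gene in the control library (circles) and the knockout library (squares, divided by the relative depth of 0.640), on a log axis with 95% Poisson intervals. The knockout point lies to the right of the control point at 9 of the 10 genes, and to the left at Smad3.

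Tgfbr1 and Tgfbr2 had the highest gene-end ratios of the 10. Tgfbr1 encodes the type I receptor kinase, also called ALK5. Its gene-end region (chromosome 4, 47352470 to 47353473) counted 280 control reads (248 to 315) and 268 knockout reads (237 to 302). At the lower depth of the knockout library this gave a scaled ratio of 1.49 (1.26 to 1.77). Higher ratios were found at 5.02% of coding gene ends. The region also touches an end of Gm32435, a noncoding gene, so its reads cannot be given to Tgfbr1 alone.

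Tgfbr2 encodes the type II receptor that binds the ligand first. Its gene-end region (chromosome 9, 116174572 to 116176083) was low in both libraries, with 39 control reads (27.7 to 53.3) and 48 knockout reads (35.4 to 63.6). It was the only gene end of the 10 with more reads in the shallower knockout library, at a scaled ratio of 1.92 (1.23 to 3.01). The summits stood apart, 364 bp inside the gene in the control and 157 bp upstream of the start in the knockout, so the values compare different points of a region 1512 bp wide. A noncoding gene, Gm40582, has an end there too.

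Tgfbr3 encodes betaglycan, a coreceptor that presents ligand to the type II receptor. Its gene-end region (chromosome 5, 107288003 to 107289723) had 74 control reads (58.1 to 92.9) and 54 knockout reads (40.6 to 70.5). The scaled ratio of 1.14 (0.787 to 1.64) did not leave 1.

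Smad2 and Smad3 encode the SMADs that the TGF-beta receptors phosphorylate. Smad2 had 236 control reads (207 to 268) and 174 knockout reads (149 to 202) at its gene end (chromosome 18, 76240884 to 76241693). Its scaled ratio of 1.15 had an interval of 0.941 to 1.41. Smad3 had 264 control reads (233 to 298) and 134 knockout reads (112 to 159) at a region 1966 bp wide over its start (chromosome 9, 63757596 to 63759561). This was the only gene end below 1, with a scaled ratio of 0.793 (0.639 to 0.980), and 85.9% of coding gene ends had a higher one. Smad4, the partner common to all SMAD signalling, had 61 control reads (46.7 to 78.4) and 56 knockout reads (42.3 to 72.7), which gave 1.43 (0.979 to 2.10). Its region (chromosome 18, 73703715 to 73704274) also lies at an end of the noncoding 4930578L24Rik.

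The inhibitory SMADs both had ratios above 1. Smad6, which acts mainly on BMP signals, had 191 control reads (165 to 220) and 170 knockout reads (145 to 198) at its gene end (chromosome 9, 64022044 to 64023243). The scaled ratio was 1.39 (1.12 to 1.72). Smad7, which targets the TGF-beta receptors and is itself induced by the pathway, had 84 control reads (67.0 to 104) and 68 knockout reads (52.8 to 86.2) at a region (chromosome 18, 75366581 to 75367872) that also touches an end of the noncoding Gm20544. Its ratio of 1.26 (0.905 to 1.76) had an interval that included 1.

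Ski and Skil encode the corepressors. Ski had the most open gene end of the 10, with 467 control reads (426 to 511) and 393 knockout reads (355 to 434), and 93.9% of coding gene ends had fewer control reads. Its scaled ratio was 1.31 (1.15 to 1.51) at a region 644 bp wide (chromosome 4, 155223070 to 155223713). Skil had 96 control reads (77.8 to 117) and 82 knockout reads (65.2 to 102) at chromosome 3, 31093369 to 31095081, a ratio of 1.33 (0.981 to 1.81). The summits at Skil lay 725 bp apart. In the control the order of gene ends ran from Ski through Tgfbr1, Smad3, Smad2 and Smad6 to Skil, Smad7, Tgfbr3, Smad4 and Tgfbr2. The intervals of neighbours in this order overlapped except between Ski and Tgfbr1 and between Smad6 and Skil.

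**Figure D2:**
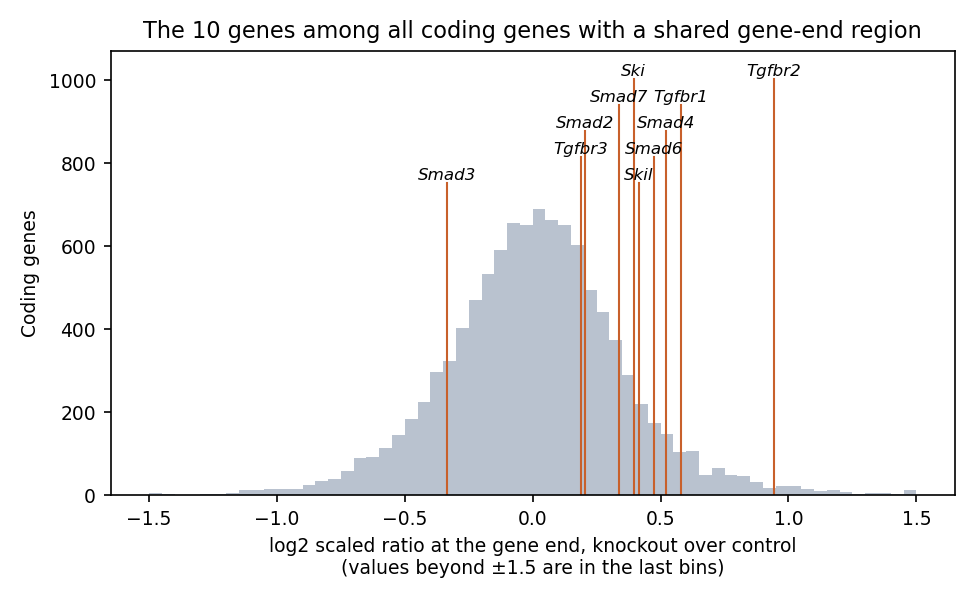
Histogram of the log2 scaled ratio at the gene end over 10376 coding genes (grey bars), with a line for each of the 10 genes. The lines of 9 genes stand to the right of 0, between Tgfbr3 at 0.19 and Tgfbr2 at 0.94, and Smad3 stands at −0.33.

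These values were set beside properties of the libraries. Over the 8171 coding gene ends in the same range of control reads (39 to 467), the median log2 scaled ratio was −0.03 and 46.8% were above 1. Coding genes split into 4 groups by promoter GC percent had medians from −0.02 to 0.04, and 4 groups by region width from −0.01 to 0.03. Of 4 groups by control reads the lowest, 7 to 58 reads, had a median of 0.14, and of the 10 genes only Tgfbr2 lay in it. Without the regions whose summits lay over 200 bp apart, those of Tgfbr2 and Skil, the median of the other 8 genes was 0.37.

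Away from the ends of the 10 genes there were 31 shared regions. Their median log2 scaled ratio was 0.09, with 19 above and 12 below 1. Of the 31, 5 lay at an end of another gene, all with ratios above 1 and a median log2 of 0.37. The other 26 had a median of 0.03, with 14 above and 12 below 1. Over all 7929 shared regions away from the ends of any gene, the median was −0.05 and 46.6% were above 1. The difference in lean between gene ends and other regions was not tested. Among the 31, intervals left 1 on the high side at 3 regions and on the low side at 1. Among the 26 at no other gene end, these counts were 1 and 1. Over all shared regions away from the ends of any gene, the shares were 5.49% and 9.80%. Over all 41 shared regions of the 10 genes, 28 had a ratio above 1 (49.5% of all shared regions), 7 an interval above 1 (7.41%) and 2 an interval below 1 (8.47%). Of the 41, 6 had a ratio of at least 1.5 (9.09% of all shared regions) and 2 a ratio of 0.667 or less (9.51%). With a spread of 0.62 in log2 (SD over the 31 regions), they ranged from 0.256 to 2.39.

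**Figure D3:**
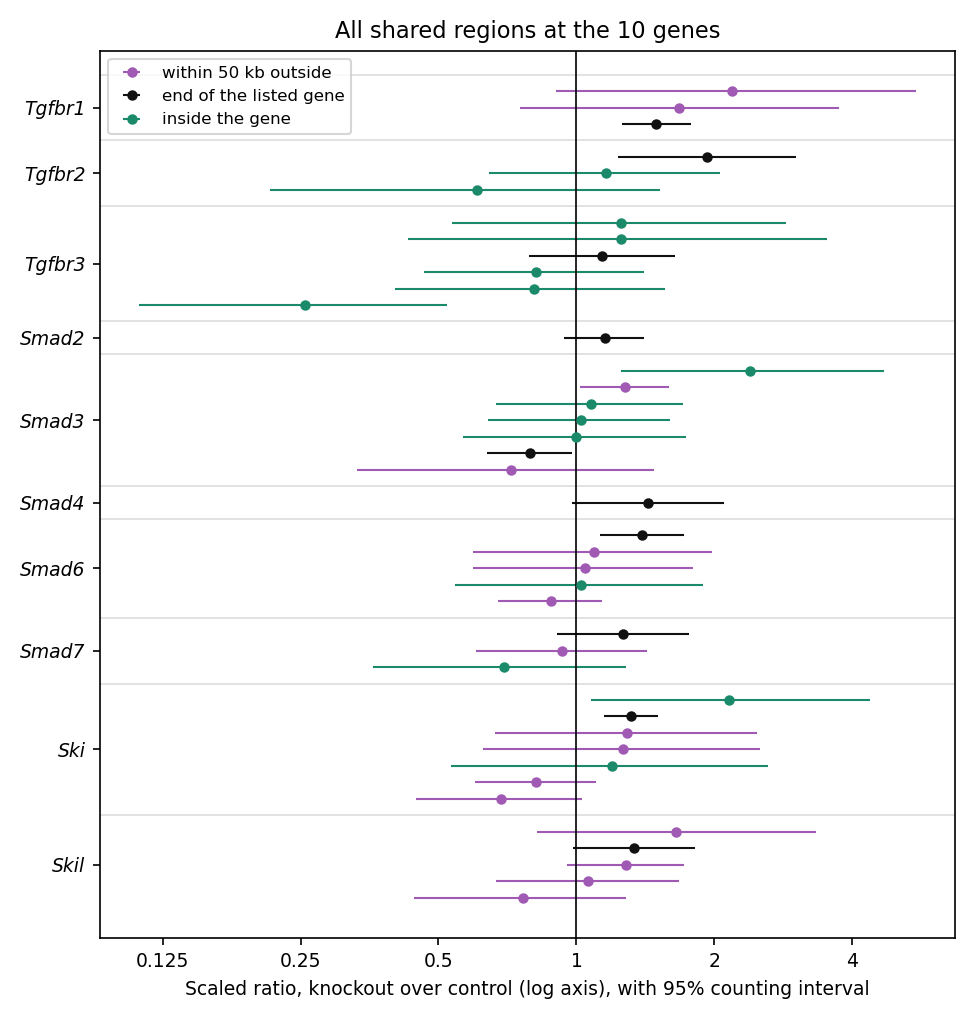
Scaled ratio, knockout over control, of each of the 41 shared regions by gene, on a log axis with 95% counting intervals. Black points are regions at an end of the gene, green points lie inside it and purple points within 50 kb outside. The lowest point, at 0.256, is inside Tgfbr3.

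The lowest ratio belonged to a region inside Tgfbr3 (107142403 to 107143190 on chromosome 5), 146 kb from the upper end of the gene. Its summit counted 55 reads in the control library but 9 in the knockout. That is a scaled ratio of 0.256 (0.111 to 0.521), and only 1 of the 18481 shared regions with a ratio had a lower one. Regions in the control list alone have no ratio, so this order leaves them out. For the control peak the deposited −log10 q was 37.2 and for the knockout peak 3.86, each against its own background. The other 4 shared regions inside Tgfbr3 had ratios of 0.808 (29 and 15 reads), 0.818 (42 and 22), 1.25 (10 and 8) and 1.25 (15 and 12), each with an interval that included 1. The exon structure is not in the gene table used here, so whether the region is exonic or intronic is not stated.

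Higher ratios with an interval above 1 were found at 3 places away from the gene ends. Inside Smad3, 19.8 kb from its upper end and at an end of the noncoding Gm51710, a region (chromosome 9, 63737546 to 63738223) had 17 control and 26 knockout reads, a ratio of 2.39 (1.25 to 4.69). Inside Ski, 20.8 kb from its upper end, a region (chromosome 4, 155200797 to 155201777) had 16 and 22 reads, a ratio of 2.15 (1.08 to 4.37). The third lay 43.7 kb from Smad3 at the adjoining ends of Iqch and Aagab, other genes, with 179 and 146 reads (1.27, 1.02 to 1.59). The first and second rest on few reads.

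Apart from the site at Iqch and Aagab, the sites outside the genes given next had intervals that included 1. A region 22.7 kb above Smad6 had 167 control and 94 knockout reads, beside 191 and 170 at the Smad6 gene end, and a ratio of 0.879 (0.675 to 1.14). One inside Faap20, 26.7 kb from Ski, had 130 and 68 reads (0.817, 0.600 to 1.10), and one inside Morn1, 36.2 kb below Ski, had 80 and 35 (0.683, 0.446 to 1.03). Below Skil, a region at 37.5 kb had 106 and 87 reads (1.28, 0.954 to 1.72). Near Smad7, 23.9 kb outside the gene, the values were 62 and 37 reads (0.932, 0.603 to 1.42), and inside it 36 and 16 (0.694, 0.360 to 1.28). Both shared regions flanking Tgfbr1 had more reads in the knockout, 14 and 15 (1.67, 0.753 to 3.74) and 10 and 14 (2.19, 0.903 to 5.50). The 2 shared regions inside Tgfbr2 had ratios of 1.16 (31 and 23 reads) and 0.607 (18 and 7), both with intervals that included 1.

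Of the 72 regions, 41 were shared, 18 were found in the control list alone (25%, interval 15.5 to 36.6) and 13 were knockout-only (18.1%, 9.98 to 28.9). Over all regions these shares were 23.4% control-only and 13.0% knockout-only. Away from the ends of the 10 genes, 18 of 61 were control-only and 12 of 61 knockout-only, some of these at an end of another gene. Among all regions away from the ends of any gene, 33.1% were control-only and 18.2% knockout-only. The 23.4% and 13.0% lie within the intervals of the shares at the 10 genes. When both lists were limited to their 11174 strongest peaks, 22 regions were left at these genes, 9.09% of them control-only and 22.7% knockout-only (5 regions), against 9.40% and 9.28% of all regions. Regions were spread unevenly between genes, from 15 at Smad3 and 14 at Tgfbr3 to 1 at Smad2, whose gene-end region was the only one listed within 50 kb. Per 100 kb of locus this was 7.1 at Smad3, 4.95 at Tgfbr3 and 0.586 at Smad2. All 5 regions at Skil and 7 of 9 at Ski were shared. At Tgfbr2 the 3 regions in 1 list were all knockout-only, while at Smad4 both regions other than the gene end were control-only. Those at Smad4 had 9 reads each, and 82.1% of all regions with like control reads were control-only. Those at Tgfbr2 had 11, 18 and 18 reads. Of all regions with knockout reads like 11, 42.5% were knockout-only, and of those like 18, 14.6%.

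**Figure D4:**
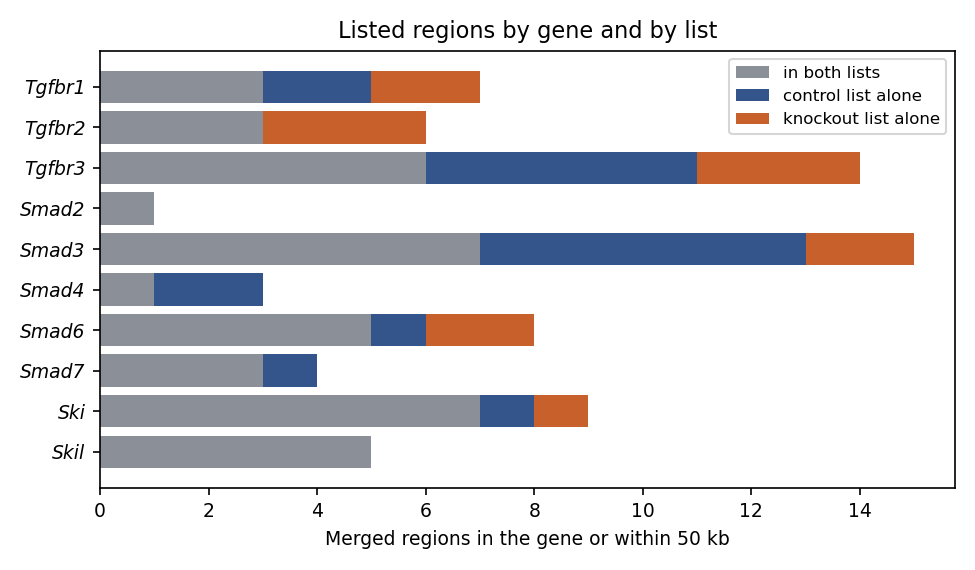
Number of merged regions in each gene or within 50 kb of it, by list: both lists (grey), control list alone (blue), knockout list alone (orange). Smad3 and Tgfbr3 hold 15 and 14 regions, Smad2 holds 1, and all 5 at Skil are in both lists.

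Regions in 1 list were mostly weak. The 18 control-only regions had a median of 13 summit reads (8 to 59), against 14 over all control-only regions. For 6 of them the knockout library would show under 6 reads at equal openness, and 6 was the lowest count listed there. For 4 it would show at least 2 times that count. The 13 knockout-only regions had a median of 8 reads (6 to 18), against 10 overall. For 0 of these would the control library show under 7 reads, its own lowest count, at equal openness, and for 5 it would show at least 2 times that count.

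The strongest control-only region lay 27.6 kb above Smad6 at an end of the noncoding 1110036E04Rik (chromosome 9, 64049712 to 64050501), with 59 summit reads (44.9 to 76.1). At equal openness 37.8 reads would stand in the knockout library. Of all 2540 regions with control reads within 20% of that number, 6.30% were control-only. Its local background was also high, at 13.4 reads, and its deposited fold was 4.17. Next came a region inside Smad3, 52.4 kb from its upper end (63705011 to 63705589), with 37 reads (26.1 to 51.0), where 16.3% of regions with like reads were control-only. It was followed by a region inside Morn1, 45.9 kb below Ski, with 28 reads (18.6 to 40.5), one inside Tgfbr3 with 20 (12.2 to 30.9) and one inside Smad7 with 18 (10.7 to 28.4).

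Inside Smad3 the control-only regions lay together. All 4, with 9, 13, 16 and 37 reads, stood between 52.4 and 75.0 kb from the upper end, a stretch with no knockout peak. The 4 shared regions inside the gene stood nearer that end, from 11.9 to 36.2 kb, with ratios of 1.02, 2.39, 1.07 and 0.998. A knockout-only region with 16 reads lay between these groups, at 41.4 kb. At 13 reads, 65.1% of like regions in all data were control-only, so the weaker members of the stretch are of a kind often missing from the knockout list.

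**Figure D5:**
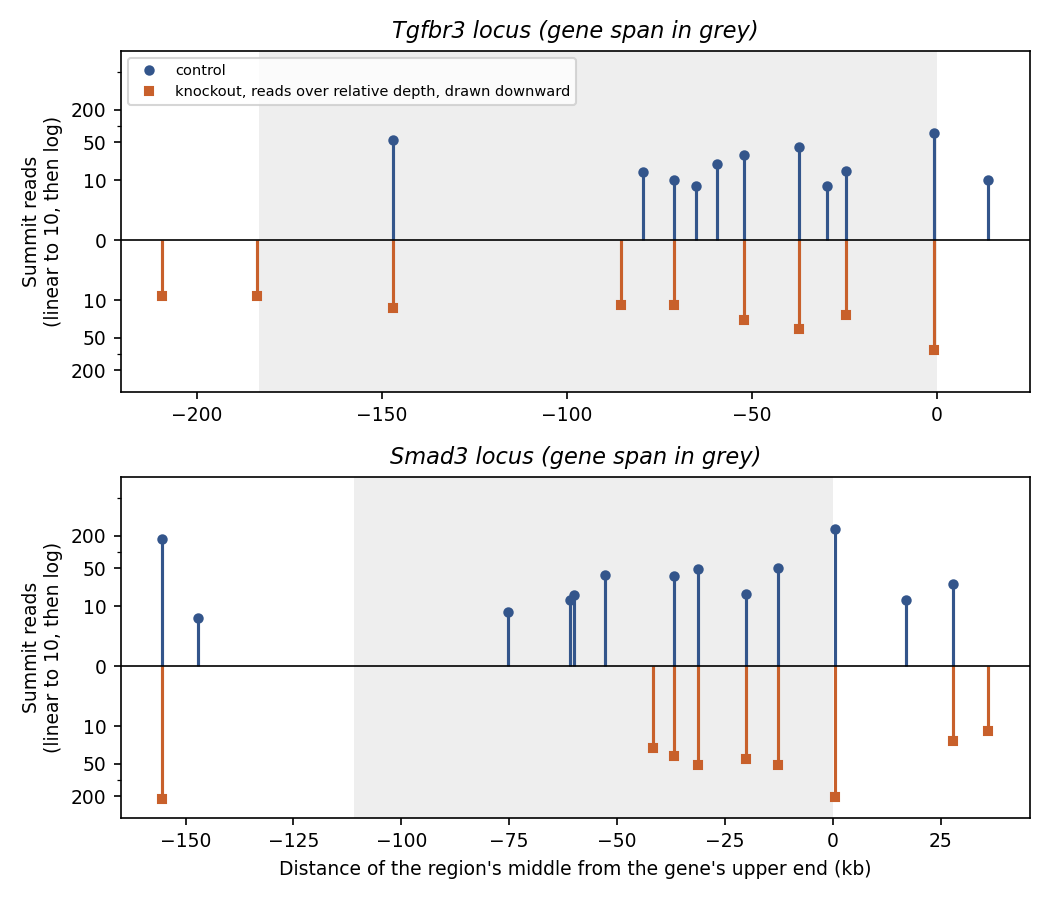
Summit reads of each region at Tgfbr3 (top) and Smad3 (bottom) by distance in kb from the gene's upper end, control upward and knockout (over relative depth) downward, on an axis that is linear to 10 and log beyond. Grey marks the gene. In Tgfbr3 the region at 146 kb has 55 control and 9 knockout reads before scaling, and in Smad3 the stretch from 52.4 to 75.0 kb has control peaks alone.

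Of knockout-only regions, the strongest were a pair at Tgfbr2, each with 18 summit reads (10.7 to 28.4). One lay inside the gene at an end of the noncoding Gm31292, 29.8 kb from the upper end (116145019 to 116145546), and the other 9.95 kb below the gene at an end of Gadl1 (116077148 to 116077750). At equal openness the deeper control library would show 28.1 reads at each. Among all regions with like knockout reads, 14.6% were knockout-only. The region inside Smad3 followed with 16 reads (9.15 to 26.0), one 22.8 kb from Tgfbr1 with 12 (6.20 to 21.0) and one 28.4 kb from Tgfbr2 with 11 (5.49 to 19.7). The second gene-end peak of Tgfbr3, 0.383 kb from its lower end, was knockout-only with 6 reads.

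The wider pathway was read from a list of 70 other genes, not limited to members of the TGF-beta superfamily. It held ligands, other receptors and coreceptors, other SMADs, genes of matrix and ligand activation, regulators, nuclear partners and targets. A shared gene-end region was found for 45 of them. Of the rest, 5 had a control-only and 2 a knockout-only gene-end region, and 18 had none. The shares of all coding genes in these classes are not given here, so the counts are not read as a result about the pathway. Counted by region and not by gene, 11.2% of all gene-end regions were control-only and 6.39% knockout-only. Of the 45, 31 had a scaled ratio above 1 and 14 below, with a median log2 of 0.18, beside 51.5% above 1 and a median of 0.01 over coding genes. Intervals lay above 1 at 9 genes (9.32% of coding genes) and below 1 at none (7.59%), though Junb, with 284 and 149 reads and a ratio of 0.819 (0.667 to 1.002), was close. A ratio of 1.5 or more was reached by 5 genes (4.94%) and a ratio of 0.667 or less by none (4.59%). Of these 5, Zfyve9, Bmp7, Acvr2a and Ltbp2 had 13, 14, 17 and 19 control reads, and Rnf111 had 63. Coding gene ends with 7 to 58 control reads had a median log2 of 0.14, with 60.6% above 1. Many of the 45 lay in that range. No comparison at like reads was made, so their lean is not read as a result about the pathway. Whether their gene-end regions also lie at ends of other genes was not checked.

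Among 14 ligand genes, 5 had a shared gene-end region and 8 had none listed. Tgfb1, the main ligand of blood cells, had 158 control and 132 knockout reads (1.30, 1.03 to 1.65), and Bmp7, a BMP ligand gene, had 14 and 19 (2.12, 1.01 to 4.57). Tgfb2, Inhba, Inhbb, Bmp4, Bmp6, Gdf11, Mstn and Nodal had no gene-end peak, and Bmp2 had one of 10 reads in the knockout list alone. Among 11 other receptor and coreceptor genes, 7 had a shared region, with ratios from 0.951 to 1.65 and every interval including 1. Acvr1b, the type I activin receptor gene that also acts through SMAD2 and SMAD3, had 33 reads in the knockout list alone. Acvr1c with 13 reads and Eng, which encodes the coreceptor endoglin, with 9 stood in the control list alone. How often regions with like reads stood in 1 list was not computed for the pathway genes. Of the BMP SMADs, Smad1 had 31 and 27 reads and Smad5 45 and 31, with ratios of 1.36 and 1.08 that included 1, and Smad9 had no gene-end peak.

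Regulators of SMADs held 4 of the 9 intervals above 1. Zfyve9, which encodes the anchor protein SARA that brings SMADs to the receptor, had 13 and 19 reads (2.28, 1.07 to 5.03). Rnf111, the gene of the ubiquitin ligase Arkadia that removes SMAD7, SKI and SKIL, had 63 and 66 reads (1.64, 1.14 to 2.35). Smurf1, another ubiquitin ligase gene, had 125 and 108 (1.35, 1.03 to 1.76). Usp9x, a deubiquitinase gene for SMAD4, had 315 and 247 (1.22, 1.03 to 1.45), but it is X-linked, and the libraries differed at sex-linked genes. The other 8 regulators with a shared region had intervals that included 1, Trim33 with 202 and 136 reads among them.

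All 7 nuclear partner genes had a shared region. Intervals above 1 were found at Sp1, with 1440 and 1051 reads (1.14, 1.05 to 1.24), and at Crebbp, a histone acetyltransferase gene, with 151 and 132 (1.37, 1.07 to 1.74). Of 12 target genes 6 had a shared region, and Id1, a target of BMP signals, had 71 and 66 reads (1.45, 1.02 to 2.06). Cdkn1c, the gene of the cell-cycle inhibitor p57, had 53 and 46 reads and a ratio of 1.36 (0.893 to 2.05). Ccn2, a classical TGF-beta target, was listed at its end only in the control, with 13 reads, as was Lrrc32, a ligand-docking gene, with 10.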

How the data were processed

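Peak lists of 1 control and 1 Brd9 knockout ATAC-seq library were used. The submitters' processing notes list MACS2 2.2.7.1, Bowtie2 2.4.4, Trimmomatic 0.39, deepTools 3.5.1, Picard 2.26.2 and build mm10, with no roles or settings; libraries were made with a kit, per the labels' protocols. Shifting of reads for the transposase and removal of duplicates are not stated there. Each deposited list belongs to 1 sample. The deposited fold (a ratio) sets summit pileup over local background after 1 is added to both. Each peak also has a deposited −log10 p and −log10 q, the latter at least 1.31 in the control and 1.32 in the knockout list. The deposited score was not used.

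Summit reads were recovered as the whole number that solves fold and −log10 p together, within a relative misfit of 7.3e-06 for 100% of peaks. The recovery was tested on simulated data. The lowest background, 1.52 control and 0.971 knockout reads, gave the relative depth of 0.640; total read numbers were not analysed here. Regions with over 3000 summit reads got no ratio. A region with several peaks takes the highest. The 95% intervals are exact Poisson intervals on reads, conditional binomial ones on ratios and Clopper-Pearson ones on shares, and they cover counting error only, since without molecular identifiers a read is not an independent molecule. Genes came from a RefSeq table of GRCm38.p6, which gives outer ends without exons; all 10 members and all 70 pathway genes matched. Of a gene's gene-end regions, the shared one with the most reads was used. Named in the text are all 10 genes, every shared region whose interval leaves out 1, the 5 strongest regions of each single list, and pathway genes whose interval leaves out 1 or whose gene-end peak is in 1 list, apart from results not reported here; others, such as the strong distal sites, Junb, Cdkn1c and Trim33, were chosen after their values were seen. Members and lists were chosen with earlier results of these data known. Likeness between genes was not computed, since 2 libraries give no pattern. Scripts ran under Python 3.11.15 with pandas 2.3.3, SciPy 1.17.1, matplotlib 3.10.9 and NumPy 2.4.6. Alternatives covered the −log10 q limit, overlap, window, gene-end distance, fold, scaling and the ratio of deposited folds.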

Additional observations from a re-analysis of the deposited data

How the results depend on the processing

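No paired analysis was possible because each genotype had 1 library and the 2 libraries carry different replicate numbers. Of 27 values of the main results under an alternative, 22 stayed within their counting interval or within 1.5 times their count. For a median ratio, the limits used were the counting limits of the middle 1 or 2 regions. These are wide and are not an interval of the median. A gene-end distance of 2.5 kb gave the same values at all 10 genes. The 22 is therefore no measure of how firm the results are. The ratio of deposited folds, centred on its median over all shared regions, lowered the median log2 at the 10 gene ends from 0.40 to 0.072, with 9 genes above 0 in both, though not the same 9. Smad3 turned from −0.33 to 0.063 and Ski from 0.39 to −0.012 under it. At these regions the local background, which the fold divides by, differed between the libraries in the direction of the reads. Without an input library the fold is no independent check of read heights. Equal numbers of top peaks (11174 per list) left 22 regions, with 9.09% control-only and 22.7% knockout-only, against 9.40% and 9.28% of all regions. Regions over an annotated start could be had for 4 genes, of which 3 were above 1. A fold of 2 left 3 shared regions higher and 1 lower. The shares of all shared regions past that fold were not computed, so these counts are not read as a lean. Scaling by the median ratio of all shared regions moved the gene-end median to 0.41. The restriction to summits within 200 bp was chosen after seeing the data. Depth limits what can be said of weak sites: of all regions with control reads within 20% of 13, 65.1% were control-only.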
